A study of Mus musculus with 8 samples.

Results

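The activating receptors of phagocytes, Fpr1, Fpr2, Trem1, Trem3, Clec4d, Clec4e, Clec7a, Csf3r and Csf2rb, were followed in spleen cells of male mice that carried the Yaa Y chromosome and in wild-type males. Their probe sets were taken from the platform annotation, keeping every probe set that is annotated to exactly 1 of these 9 symbols. This gave 11 probe sets for 8 of the 9 genes, out of 18193 genes named by 1 symbol on the array, and 11 of the 11 passed the filter on dim probe sets, which kept 22518. Fpr1 has no probe set under its symbol in the annotation used here and was not analysed here. The genes were chosen by their function with the Yaa minus wild-type differences of these arrays known, Fpr2 and Trem1 among the smallest p, so their differences between the groups are given below as descriptions, without a test.

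The samples were 4 of B6.SB-Yaa/J and 4 of C57BL/6J (WT), all male and 8 weeks old, with 1 array each. Every sample came from 1 spleen except Yaa 3, which pooled 2. On the Yaa chromosome a piece from the end of the X chromosome is known to be duplicated, Tlr7 with it, and the labels name no further allele or agent in either group. It was not tested whether the strains differ elsewhere. Tlr7, as a check of the labels, averaged 8.00 ± 0.38 in Yaa and 7.09 ± 0.22 in WT (log2 signal, SD, n = 4 each), with all 4 Yaa samples above all 4 WT samples.

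Phagocytes read bacteria, fungi and damaged cells through a small set of activating receptors. Formyl peptide receptors are G protein-coupled receptors that steer neutrophils towards peptides from bacteria and mitochondria. Trem receptors and most of the C-type lectin receptors here have no long signalling tail of their own and signal through adaptors with an immunoreceptor tyrosine-based activation motif, DAP12 (Tyrobp) for Trem1 and Trem3 and the Fc receptor gamma chain (Fcer1g) for Clec4e, whereas Clec7a carries such a sequence in its own tail. The receptors for colony-stimulating factors act through Janus kinases and set how many granulocytes are made and how long they live.

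Several of these genes are neighbours. Fpr1 and Fpr2 on chromosome 17 have 0 genes starting between them in GRCm38.p6, Clec4d and Clec4e on chromosome 6 also have 0, and Trem1 and Trem3 on chromosome 17 have 3. The promoter windows below, from 250 bases before to 50 after the start site, are RefSeq sequence of GRCm38.p6, printed in the direction of the gene. They belong to the 4 genes with an entry in that table whose brightest probe set was higher in every Yaa sample than in every WT sample. Fpr2 lies at chr17:17887574-17887873 on the plus strand, Trem1 at chr17:48232489-48232788 on the plus strand, Clec4d at chr6:123261857-123262156 on the plus strand and Clec4e at chr6:123289822-123290121 on the minus strand. Capitals mark matches, on either strand, to a core motif of PU.1 (GAGGAA), of C/EBP (TTNNGNAA) or of STAT proteins (TTCNNNGAA), factors known in myeloid cells.
Fpr2: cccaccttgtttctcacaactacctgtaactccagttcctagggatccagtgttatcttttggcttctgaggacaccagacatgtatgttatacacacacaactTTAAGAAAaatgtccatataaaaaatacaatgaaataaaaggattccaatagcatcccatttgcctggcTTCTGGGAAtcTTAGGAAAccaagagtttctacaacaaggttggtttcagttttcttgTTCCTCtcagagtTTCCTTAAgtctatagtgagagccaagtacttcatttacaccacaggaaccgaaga
Trem1: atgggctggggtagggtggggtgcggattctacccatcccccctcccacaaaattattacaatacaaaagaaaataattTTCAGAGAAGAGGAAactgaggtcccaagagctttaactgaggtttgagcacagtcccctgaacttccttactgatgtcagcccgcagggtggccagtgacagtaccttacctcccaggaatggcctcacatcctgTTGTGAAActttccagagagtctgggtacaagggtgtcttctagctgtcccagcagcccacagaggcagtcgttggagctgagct
Clec4d: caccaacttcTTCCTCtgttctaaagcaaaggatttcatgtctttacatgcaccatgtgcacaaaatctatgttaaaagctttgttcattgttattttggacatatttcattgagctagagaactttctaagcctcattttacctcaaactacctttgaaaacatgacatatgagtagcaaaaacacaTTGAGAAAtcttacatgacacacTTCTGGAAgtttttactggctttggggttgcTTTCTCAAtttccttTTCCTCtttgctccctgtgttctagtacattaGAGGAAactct
Clec4e: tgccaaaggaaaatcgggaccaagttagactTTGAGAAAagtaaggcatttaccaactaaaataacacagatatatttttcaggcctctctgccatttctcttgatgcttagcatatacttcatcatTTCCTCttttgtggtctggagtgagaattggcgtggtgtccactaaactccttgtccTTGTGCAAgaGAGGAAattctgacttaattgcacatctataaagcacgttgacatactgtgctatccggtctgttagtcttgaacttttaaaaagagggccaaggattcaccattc

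The window of Fpr2 held 1 PU.1, 3 C/EBP and 1 STAT match, and that of Trem1 held 1 of each. Clec4d had 3 PU.1 and 3 C/EBP matches and Clec4e 2 of each, both with 0 STAT matches. No 2 matches overlapped. Of the 7 receptors with an entry, Fpr1 included, 6 had a PU.1 match, 5 a C/EBP match and 2 a STAT match. Over all 32851 windows of this length, 28.3% held a PU.1 match, 40.7% a C/EBP match and 8.3% a STAT match. A match of letters this short is not a binding site, and the windows of 7 receptors are too few to set against those shares.

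A pair of arrays stood apart from the rest over all tested probe sets. On the first principal component of the tested probe sets (56.8% of the variance), Yaa 2 lay at -68.8, Yaa 3 at 92.4 and the other 6 samples between -20.0 and 18.4. In Yaa 3 the tested B cell markers averaged 5.52 on the log2 scale, against 10.2 to 10.8 in the other Yaa samples and 10.2 to 10.6 in WT, although B cells are a main cell type of the labelled tissue. T cell markers stood at 5.28 in Yaa 3, against 8.49 to 9.31 in the other Yaa samples and 8.28 to 8.73 in WT. In Yaa 2 the erythroid markers stood at 10.3, against 11.9 to 12.2 in the other Yaa samples and 11.9 to 12.3 in WT. Every receptor is therefore given with and without this pair of samples. The trimmed mean of the signals as deposited ran from 107 to 163 in Yaa and from 144 to 193 in WT, and all values below are quantile normalized and given as log2(signal + 16), a scale that understates differences of dim probe sets. The number of arrays limits the precision.

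As a group the receptors had higher means in Yaa. The median difference over the 8 genes, each by its brightest probe set, was 1.26 on the log2 scale, beside -0.01 over all tested probe sets. All 11 probe sets had a higher mean in Yaa, where 47.6% of tested probe sets did, and 7 of 11 had all Yaa samples above all WT samples, where 2.43% of tested probe sets did. limma called 0 of 11 over all probe sets, where 0.00444% were called higher in Yaa and 0% lower, and 10 of 11 had an unadjusted p under 0.05, where 2.97% of probe sets did on the higher side. Since this contrast had a part in the choice of the genes, nothing is read from these counts. In bulk spleen cells a larger number of phagocytes and more RNA per phagocyte cannot be told apart.

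**Figure D1:**
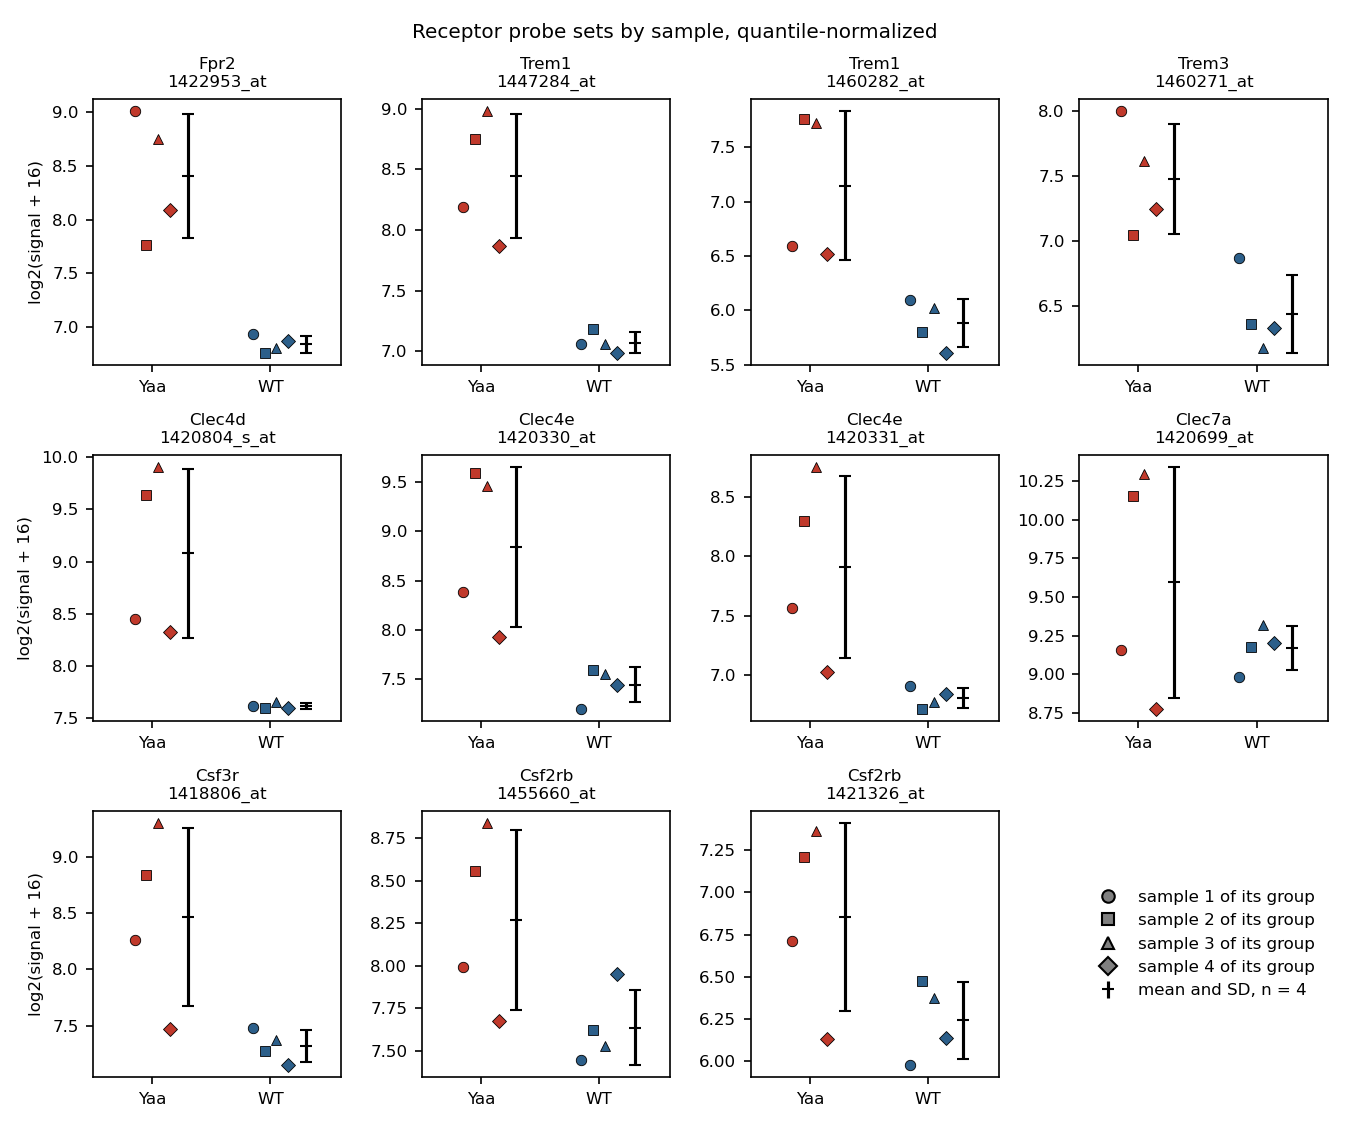
Normalized log2(signal + 16) of the 11 receptor probe sets, with Yaa samples at left and WT samples at right in each panel, 1 marker shape per sample number and bars for mean and SD (n = 4). The WT samples of Clec4d lie between 7.60 and 7.66, while its Yaa samples spread from 8.33 to 9.91.

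Among the formyl peptide receptors, Fpr2, which binds formylated bacterial peptides as well as host ligands such as annexin A1, had the largest difference of the 8 genes with all samples on this scale. With log2(signal + 64) Clec4d exceeded it, at 1.28 against 1.26. Without Yaa 1 Clec4d, Clec4e and Trem1 did, at 1.67, 1.55 and 1.46 against 1.36. Without Yaa 4 Clec4d and Clec4e did, at 1.72 and 1.70 against 1.67. The log2 signal of Fpr2 was 9.01, 7.76, 8.75 and 8.09 in Yaa 1 to 4, against 6.94, 6.76, 6.80 and 6.87 in WT 1 to 4. The lowest Yaa sample stood clear of the highest WT sample, and Yaa 1 was the highest of all. As deposited, before any scaling, its signals were 533, 222, 280 and 226 in Yaa 1 to 4, against 105, 117, 92.0 and 108 in WT 1 to 4. The difference of the log2 means was 1.56 ± 0.26 (SE), 2.95-fold on the signal + 16 scale. It was 1.72 without Yaa 2 and Yaa 3, so the pair of samples that stood apart did not carry it.

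Trem1, an amplifier of neutrophil and monocyte activation, was measured by 2 probe sets. The brighter one read 8.19, 8.75, 8.98 and 7.87 in Yaa 1 to 4, against 7.06, 7.18, 7.06 and 6.98 in WT 1 to 4, a difference of 1.38 ± 0.24 (SE). The dimmer one averaged 7.15 ± 0.69 in Yaa and 5.88 ± 0.22 in WT (SD, n = 4 each), a difference of 1.27 ± 0.31 (SE). Neither probe set overlapped between the groups. Without Yaa 2 and Yaa 3, both of which were high, the differences were 0.96 and 0.69.

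Trem3, a receptor of mouse macrophages that also pairs with DAP12, read 8.00, 7.05, 7.62 and 7.24 in Yaa 1 to 4, against 6.87, 6.36, 6.18 and 6.33 in WT 1 to 4. Yaa 2 was the lowest Yaa sample and still lay above WT 1, the highest WT sample. The difference was 1.04 ± 0.24 (SE), and 1.20 without Yaa 2 and Yaa 3. Although Trem1 and Trem3 lie close together on chromosome 17, their order over the Yaa samples was not the same, with Yaa 3 and Yaa 2 on top for Trem1, and Yaa 1 on top with Yaa 2 at the bottom for Trem3.

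The neighbouring C-type lectin receptors Clec4d and Clec4e, known as MCL and Mincle, recognize the mycobacterial glycolipid trehalose dimycolate and regulate each other's surface level. Clec4d read 8.45, 9.63, 9.91 and 8.33 in Yaa 1 to 4, against 7.62, 7.60, 7.66 and 7.60 in WT 1 to 4. Its WT samples were nearly level, with an SD of 0.03, while the SD of the Yaa samples was 0.81. The difference was 1.46 ± 0.35 (SE) and fell to 0.78 without Yaa 2 and Yaa 3. The name of its only probe set ends in _s_at, which marks probes that can match more than 1 transcript.

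Clec4e, which also senses the nuclear protein SAP130 released by dying cells, gave 8.38, 9.59, 9.46 and 7.93 in Yaa 1 to 4, against 7.19, 7.60, 7.55 and 7.44 in WT 1 to 4. The groups did not overlap, and Yaa 2 and Yaa 3 lay more than 1 unit above Yaa 1 and Yaa 4. The difference was 1.40 ± 0.36 (SE), and 0.71 without that pair. The other probe set of Clec4e averaged 7.91 ± 0.76 in Yaa and 6.81 ± 0.09 in WT (SD, n = 4 each), a difference of 1.10 ± 0.33 (SE), which fell to 0.49 without the pair.

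Clec7a, or Dectin-1, the receptor for fungal beta-glucans, was the member with the smallest difference. It read 9.16, 10.16, 10.29 and 8.77 in Yaa 1 to 4, against 8.98, 9.18, 9.32 and 9.20 in WT 1 to 4. Only Yaa 2 and Yaa 3 exceeded the WT samples, Yaa 1 lay among them and Yaa 4 below them. The difference of 0.42 ± 0.33 (SE) turned to -0.21 without Yaa 2 and Yaa 3 and to -0.03 with limma array weights, and the groups overlapped. Clec7a thus differed from Clec4d and Clec4e in Yaa 1 and Yaa 4, where the neighbours were 0.49 to 0.94 above their WT means and Clec7a was -0.02 and -0.40 from its own.

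The receptors for colony-stimulating factors lay between these patterns. Csf3r, the receptor for G-CSF that drives neutrophil production, read 8.26, 8.84, 9.30 and 7.47 in Yaa 1 to 4, against 7.48, 7.27, 7.37 and 7.15 in WT 1 to 4. Yaa 1, Yaa 2 and Yaa 3 were above every WT sample, while Yaa 4 lay just under WT 1. The difference was 1.15 ± 0.34 (SE), and 0.55 without Yaa 2 and Yaa 3.

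Csf2rb encodes the beta chain shared by the receptors for GM-CSF, IL-3 and IL-5. Its brighter probe set read 7.99, 8.56, 8.84 and 7.68 in Yaa 1 to 4, against 7.45, 7.62, 7.53 and 7.95 in WT 1 to 4, a difference of 0.63 ± 0.26 (SE). Its dimmer one averaged 6.85 ± 0.55 in Yaa and 6.24 ± 0.23 in WT (SD, n = 4 each), a difference of 0.61 ± 0.27 (SE). Both overlapped between the groups, and without Yaa 2 and Yaa 3 they differed by 0.20 and 0.18. Mouse has a near-identical copy, Csf2rb2, which serves IL-3 alone, and a probe set annotated to both copies and so outside the rule averaged 6.30 ± 0.64 in Yaa and 5.70 ± 0.20 in WT (SD, n = 4 each), a difference of 0.59.

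**Figure D2:**
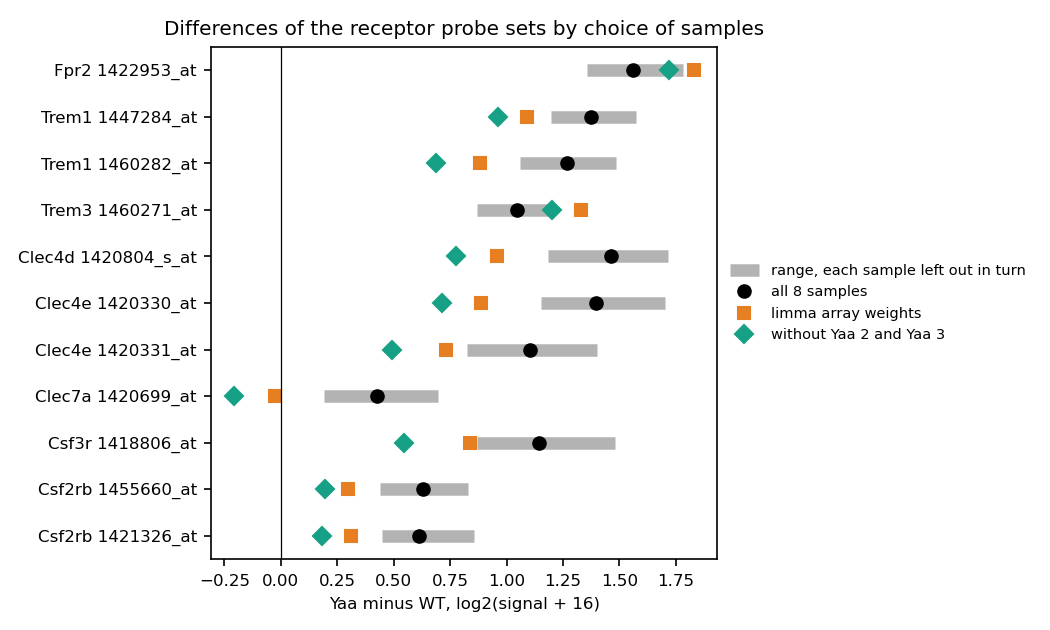
Yaa minus WT difference of each receptor probe set in log2(signal + 16), with all 8 samples (circles), with limma array weights (squares) and without Yaa 2 and Yaa 3 (diamonds); grey bars span the values with each single sample left out. Fpr2 and Trem3 lie further right without Yaa 2 and Yaa 3, at 1.72 and 1.20, the other probe sets lie further left, and Clec7a falls below 0.

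Array weights in limma count an array less the more it deviates, here 0.22 for both Yaa 2 and Yaa 3. With them limma called 3 of the 11 probe sets higher, those of Fpr2 and Trem3 and the brighter one of Trem1, where 0.453% of all tested probe sets were called higher and 0.182% lower. Without Yaa 2 and Yaa 3 it also called 3, those of Fpr2 and Clec4d and the brighter one of Trem1, where 0.324% were called higher. Without Yaa 2 alone it called 1, that of Fpr2, where 0.12% were called higher. Of the 12 tested neutrophil markers described below, limma with array weights called 10 higher. The counts of receptor probe sets come from the contrast that took part in the choice, and no test is drawn from them.

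The receptors split into 2 orders over the Yaa samples. This was seen in the data and is given as a description. In 9 of 11 probe sets, those of Trem1, Clec4d, Clec4e, Clec7a, Csf3r and Csf2rb, Yaa 2 and Yaa 3 were the highest pair of the Yaa samples, an order that 13.7% of all tested probe sets shared. The same 9 had Yaa 4 as the lowest Yaa sample, as did 17.3% of all tested probe sets. In the remaining 2, Fpr2 and Trem3, Yaa 1 was highest and Yaa 2 lowest, an order shared by 3.79% of all tested probe sets. The mean over the 8 genes was 8.43, 8.79, 9.14 and 7.92 in Yaa 1 to 4, and ran only from 7.43 to 7.45 in WT. Single receptors varied more than that mean over the WT samples, and in both directions. In WT 1 Trem3 stood at 0.43 and Clec4e at -0.25 from their WT means, and in WT 4 Csf2rb stood at 0.31.

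Most markers of neutrophils shared the second order. All 12 tested neutrophil markers had higher means in Yaa, with a median difference of 1.42 that was 1.90 without Yaa 2 and Yaa 3. Yaa 1 was highest and Yaa 2 lowest among the Yaa samples for 11 of 12. The exception, Cxcr2, read 6.14, 5.85, 6.97 and 4.42 in Yaa 1 to 4. The mean log2 signal of the 12 markers was 10.30, 7.93, 9.73 and 9.26 in Yaa 1 to 4, against 8.32, 7.93, 7.56 and 7.71 in WT 1 to 4. Their summed signal ran from 12661 to 50170 in Yaa and from 8228 to 13663 in WT, and no marker was at 0. WT 1 was the highest WT sample for 11 of 12 neutrophil markers and for 5 of 11 receptor probe sets, those of Fpr2, Trem3 and Csf3r and the dimmer ones of Trem1 and Clec4e, where 34.4% of all tested probe sets had it highest. In Yaa 2 the markers went both ways, with 4 of 12 above every WT sample, Mmp8, Mmp9, S100a9 and Cxcr2, and 3 of 12 below every WT sample, Ltf, Ngp and Elane, and their mean was within the WT range. Fpr2 stood 0.92 and Trem3 0.61 above their WT means in that sample. The part of granulocyte number in the levels of Fpr2 and Trem3 was not tested.

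Relative to the neutrophil markers the receptors overlapped between the groups. The mean over the 8 receptors minus the mean of the neutrophil markers was -1.87, 0.86, -0.59 and -1.34 in Yaa 1 to 4, against -0.88, -0.48, -0.13 and -0.27 in WT 1 to 4. Only changes of this quantity between samples can be read, since levels of different probe sets cannot be set against each other. It was highest in Yaa 2 and lowest in Yaa 1. For Clec4d this difference was 1.71 in Yaa 2 and for Clec7a 2.23, against at most 0.10 and 1.76 in WT.

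Markers of monocytes were nearer to the first order. Of 13 tested monocyte markers 12 had a higher mean in Yaa, with a median difference of 0.49 that was 0.01 without Yaa 2 and Yaa 3, and 7 of 13 had Yaa 2 and Yaa 3 as the highest pair. Ccr2, Lyz2, Lyz1, Fcgr4 and F13a1 had all Yaa samples above all WT samples, 5 of 13, where 2.43% of all tested probe sets did. Without Yaa 2 and Yaa 3 they stood at 0.43, 0.78, 0.50, 0.66 and 0.74, and the other markers between -0.21 and 0.12. With array weights limma called 3 of 13 higher, Lyz2, Lyz1 and Fcgr4, where 0.453% of all tested probe sets were called higher. The mean of the 13 markers was 9.22, 9.33, 9.67 and 8.77 in Yaa 1 to 4, against 8.71, 8.80, 8.80 and 8.85 in WT 1 to 4. Their summed signal ran from 13340 to 27005 in Yaa and from 11134 to 12729 in WT, and no marker was at 0. Ms4a6c, the 1 marker with a lower mean in Yaa, read 5.63 in Yaa 3, where B and T cell markers were low too. It read 9.72 to 10.45 in the other Yaa samples and 9.86 to 10.25 in WT. This lowers the mean of the markers in Yaa 3 and raises the receptors relative to it in that sample. The mean over the receptors minus the mean of the monocyte markers was -0.79, -0.53, -0.53 and -0.85 in Yaa 1 to 4, against -1.26, -1.36, -1.37 and -1.41 in WT 1 to 4, so that the mean of the receptors stood higher relative to these markers in every Yaa sample. Not every receptor did. On this relative scale Clec7a averaged 0.35 ± 0.45 in Yaa and 0.38 ± 0.10 in WT, and Csf2rb -0.98 ± 0.22 in Yaa and -1.15 ± 0.17 in WT (SD, n = 4 each). Trem3 in Yaa 2 and Yaa 3, at -2.28 and -2.05, and Csf3r in Yaa 4, at -1.30, lay below WT 1, at -1.84 and -1.23. The part of monocyte number in these levels was not tested.

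**Figure D3:**
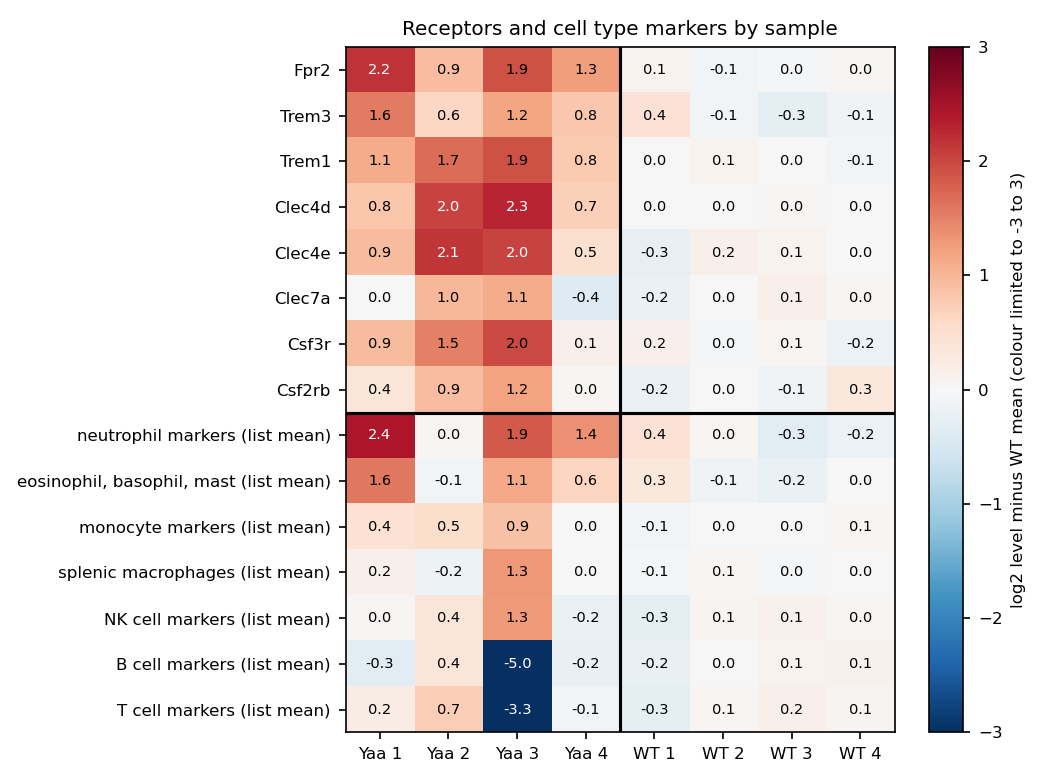
Log2 level minus the WT mean for the 8 receptors (top rows, brightest probe set) and for the means of 7 marker lists (bottom rows), with Yaa samples left of WT samples; colours stop at -3 and 3. Fpr2 and Trem3 follow the neutrophil row with Yaa 1 highest, while the other receptors are highest in Yaa 2 and Yaa 3, and the B and T cell rows drop in Yaa 3.

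Markers of other cells and of handling varied over the samples as well. Eosinophil, basophil and mast cell markers averaged 6.91 ± 0.72 in Yaa and 6.09 ± 0.22 in WT (SD, n = 4 each), with 5 of 5 tested markers higher in mean. NK cell markers were highest in Yaa 3, at 8.95, and Yaa 2 and Yaa 3 were the highest Yaa pair for 6 of 6. Splenic macrophage markers were also highest in Yaa 3, at 10.03, against 8.68 to 8.79 in WT. The 8 handling-sensitive genes averaged 10.94 ± 0.17 in Yaa and 10.30 ± 0.08 in WT (SD, n = 4 each), with a median difference of 0.17 over the 8 genes. The highest were heat shock genes, Hspa1a at 2.15, Hspa1b at 1.84 and Hsph1 at 0.92, while Fos stood at -0.09, Atf3 at 0.12 and Jun and Egr1 at -0.002 and 0.002. Of the pancreas markers 1 of 5 was above the filter, and it was not higher in Yaa. The part of these in the receptor levels was not tested.

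**Figure D4:**
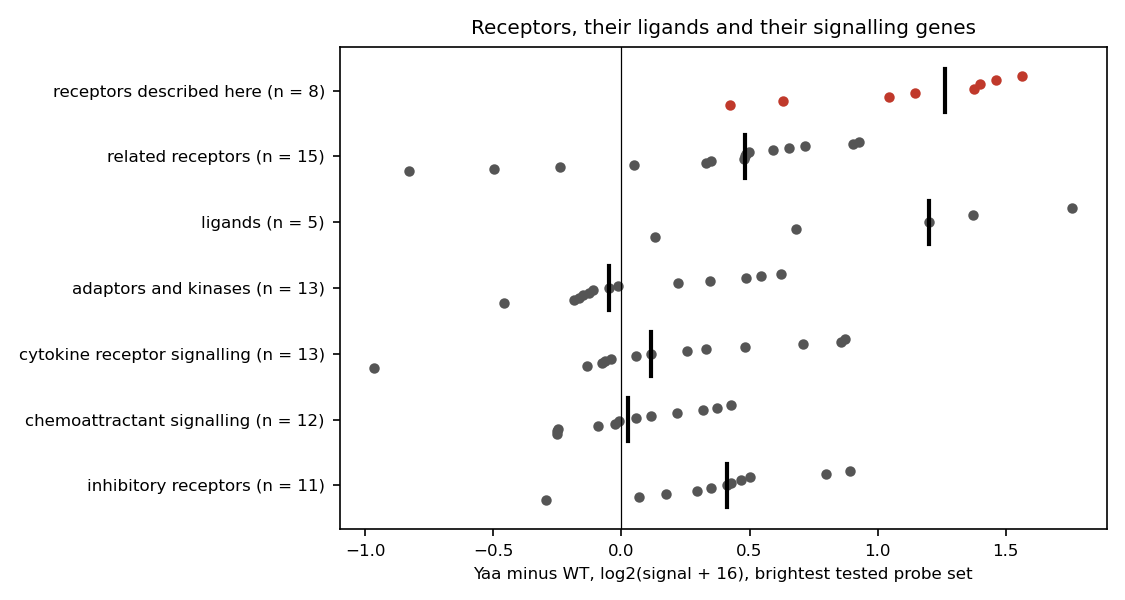
Yaa minus WT difference in log2(signal + 16) of each gene's brightest tested probe set, for the receptors (red) and for 6 lists of related and signalling genes, with a black bar at each median. The receptors center on 1.26 and the ligands on 1.20, while the signalling lists lie between -0.05 and 0.12.

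The receptors' relatives, ligands and signalling genes, which the rule did not use, were tested with limma over all probe sets. These lists were chosen with earlier results of these data known, so their counts are given as descriptions. None of the 69 tested genes of the 6 lists passed, at an adjusted p under 0.05. At an unadjusted p under 0.05 there were 14, all of them higher in Yaa. Of all tested probe sets, 2.97% were higher and 1.76% lower at that threshold. With array weights limma called 2 of 69, both ligands and both higher, where 0.453% of all tested probe sets were called higher.

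The ligands had the highest median of the 6 lists, 1.20 over 5 tested genes. Anxa1, annexin A1, whose peptides act on formyl peptide receptors, averaged 10.40 ± 0.85 in Yaa and 9.03 ± 0.14 in WT (SD, n = 4 each). Its difference of 1.37 ± 0.37 (SE) did not pass without weights (limma adjusted p = 0.723). With array weights the difference was 1.74 (limma adjusted p = 0.020, with a range over the alternatives of 0.020 to 1). Pglyrp1, a granule protein known as a ligand of Trem1 when bound to peptidoglycan, averaged 8.21 ± 0.61 in Yaa and 7.01 ± 0.30 in WT, a difference of 1.20 ± 0.30 (SE). Camp, the precursor of the cathelicidin peptide that acts on Fpr2, averaged 10.82 ± 1.86 in Yaa and 9.06 ± 0.37 in WT. Its difference of 1.76 ± 0.78 (SE) did not pass without weights (limma adjusted p = 0.997). With array weights the difference was 2.84 (limma adjusted p = 0.022, with a range over the alternatives of 0.00669 to 1). The lowest value of that range came without Yaa 2 and Yaa 3. Camp and Pglyrp1 are also proteins of neutrophil granules, and Camp and Anxa1 had Yaa 1 highest and Yaa 2 lowest among the Yaa samples. In Yaa 2 Camp stood at 8.21, below all 4 WT samples. The cytokine genes Csf3, Csf2, Il3 and Il5 were not among the tested genes.

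Of the relatives 12 of 15 tested had higher means, with a median of 0.48 that was 0.09 without Yaa 2 and Yaa 3. An unadjusted p under 0.05 was found for 5, all higher, where 2.97% of all tested probe sets were. Clec5a, an activating lectin that signals through DAP12, averaged 6.12 ± 0.33 in Yaa and 5.22 ± 0.21 in WT (SD, n = 4 each), a difference of 0.91 ± 0.20 (SE; limma adjusted p = 0.553, and 0.0722 to 1 over the alternatives), and was 0.90 without Yaa 2 and Yaa 3. Cd300lb, an activating receptor of the CD300 family, had 0.93 ± 0.28 (SE) and Pilrb1, a paired activating receptor, 0.72 ± 0.24 (SE). Among partners and close relatives of the receptors, Csf2ra, the alpha chain that pairs with Csf2rb for GM-CSF, had 0.50 ± 0.22 (SE), Clec4n, or Dectin-2, 0.33 ± 0.26 (SE) and Csf2rb2 0.48 ± 0.33 (SE). Without Yaa 2 and Yaa 3 Cd300lb stood at 0.58, Pilrb1 at 0.53, Csf2ra at 0.20 and Clec4n at 0.30, and Csf2rb2 turned to -0.14.

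The adaptors and kinases had a median of -0.05, with 5 of 13 higher in mean. Those with the smallest p were the adaptors of these receptors and a kinase that works with them. Fcer1g averaged 9.51 ± 0.51 in Yaa and 8.89 ± 0.05 in WT (SD, n = 4 each), a difference of 0.62 ± 0.23 (SE), and 0.29 without Yaa 2 and Yaa 3. Tyrobp averaged 11.29 ± 0.56 in Yaa and 10.75 ± 0.11 in WT, a difference of 0.55 ± 0.25 (SE), and 0.13 without that pair. Fgr, a Src family kinase of myeloid cells, had 0.49 ± 0.22 (SE), and 0.14 without the pair. Syk, Plcg2 and Malt1, which B cells use as well, had -0.17, -0.15 and -0.46, and -0.21, -0.09 and -0.48 without the pair. limma called 0 of the 13.

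The lists of signalling genes below the colony-stimulating factor and formyl peptide receptors had medians near 0. Cytokine receptor signalling had a median of 0.12, with 8 of 13 higher in mean and 4 of 13 at an unadjusted p under 0.05, all 4 higher, where 2.97% of all probe sets were. Its leading genes were transcription factors of granulocytes and monocytes, Cebpa at 0.48 ± 0.16 (SE), Cebpb at 0.71 ± 0.24 (SE) and Cebpd at 0.87 ± 0.35 (SE). Without Yaa 2 and Yaa 3 Cebpa stood at 0.58, Cebpb at 0.37 and Cebpd at 1.09. The fourth, Socs3, a feedback inhibitor of G-CSF signalling, had 0.86 ± 0.36 (SE), with all Yaa samples above all WT samples, and 0.45 without that pair. Gfi1 stood at -0.96 ± 0.55 (SE), with 5.32 in Yaa 3 against 7.33 to 8.18 in the other Yaa samples and 7.68 to 8.35 in WT, and at -0.56 without the pair. Genes of the kinases and STAT proteins themselves had smaller differences, with Jak2 at 0.06, Stat3 at 0.33 and Stat5a at -0.04, and at 0.02, 0.27 and -0.15 without Yaa 2 and Yaa 3. Chemoattractant signalling had a median of 0.02, with Pik3r5 at 0.43, Arrb2 at 0.37 and the oxidase subunit Cybb at 0.32, which were 0.23, 0.22 and 0.32 without that pair, and 0 of 12 had an unadjusted p under 0.05.

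Inhibitory receptors of the same cells were listed together with the phosphatases Ptpn6 and Inpp5d. Of these 11 tested genes 10 were higher in mean, with a median of 0.41 that was 0.11 without Yaa 2 and Yaa 3. Clec4a2, an inhibitory lectin of the chromosome 6 cluster that also holds Clec4d and Clec4e, averaged 7.68 ± 0.66 in Yaa and 6.79 ± 0.20 in WT (SD, n = 4 each), a difference of 0.89 ± 0.30 (SE). Pilra, the inhibitory partner of the paired Pilr receptors, had 0.80 ± 0.25 (SE), and Cd300a 0.50 ± 0.24 (SE). Ptpn6, the phosphatase through which many of them act, had -0.29 ± 0.31 (SE). Without Yaa 2 and Yaa 3 Pilra stood at 0.47, Cd300a at 0.14 and Ptpn6 at -0.13. None of the 11 passed limma's test with all samples or with array weights.

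The genes most like the receptors in their levels over the 8 arrays were sought among the 10340 tested genes, leaving out the receptors, by Pearson's correlation with the mean of the receptors' standardized levels. The 6 closest were Adam8, a metalloprotease of leukocytes (r = 0.989), H2-Q10, a class Ib MHC gene (0.986), S100a6, a calcium-binding protein (0.983), Lipa, the lysosomal acid lipase (0.981), Stfa2l1, a stefin A family protease inhibitor (0.981), and Slpi, a leukocyte protease inhibitor (0.979). The arrays share the group difference and the sample composition, and these correlations describe 8 arrays only. Adam8 averaged 8.31 ± 0.49 in Yaa and 7.42 ± 0.10 in WT, and Slpi 9.86 ± 0.64 in Yaa and 8.88 ± 0.08 in WT (SD, n = 4 each). Lipa differed by only 0.29, so a close pattern did not need a difference as large as that of the receptors.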

How the data were processed

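Total RNA of spleen cells was measured on Affymetrix mouse expression arrays in 8 samples, grouped by the strain and replicate number in the labels. The authors deposited MAS5 signals, a linear intensity per probe set, per the submitters' processing notes; the sources used here give no version, scaling target or filter. Arrays were quantile normalized, taken as log2(signal + 16), and 64 controls and any remaining probe set not above the median of mean levels were left out. Yaa was compared with WT with limma (version 3.58.1, R version 4.3.3), with a mean-variance trend and Benjamini-Hochberg adjustment over 22518 probe sets at 0.05. Of 34945 probe sets with 1 symbol, 34741 matched GRCm38.p6 by Entrez ID. A gene's brightest tested probe set stands for it. The SE is limma's moderated one. The p-values of limma set the group difference against the spread between samples, of which Yaa 3 pooled 2 spleens.

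Named are every receptor; of each list of related genes, every call and the 3 smallest p; and the 6 genes most like the receptors. Genes beyond these were picked after seeing their values. The receptors, lists and tests were chosen with earlier results of these data known. Alternatives were other scalings, pseudocounts, filters and variance models, array weights, a replicate block and samples left out. The procedure was tested on simulated data. Figures were drawn with matplotlib 3.10.9.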

Additional observations from a re-analysis of the deposited data

Results flagged for a closer look

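Among 92 groups of 4 samples checked, 8 had a highest or lowest sample whose gap to the next was over 0.829 of the group's range, where chance alone flags about 5% of groups. None was a receptor described here. In WT, Cd300lb stood at 4.73 in WT 4, against 5.40 to 5.52 in the other WT samples. Arrb2 stood at 8.15 in Yaa 4, against 8.74 to 8.81 in the other Yaa samples. WT 1 was the low sample for the means of 3 lists, with 7.05 for the relatives of the receptors, 8.60 for adaptors and kinases and 7.61 for inhibitory receptors, where the other WT samples began at 7.19, 8.96 and 7.74. B cell markers stood at 5.52 in Yaa 3, against 10.2 to 10.8 in the other Yaa samples. Erythroid markers stood at 10.3 in Yaa 2, against 11.9 to 12.2. Platelet markers stood at 7.60 in WT 4, against 7.34 to 7.38 in the other WT samples.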

How the results depend on the processing

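Over all probe sets limma called 1 higher and 0 lower. It called 0 higher with log2(signal + 4) and with the replicate block (1043 and 731 at an unadjusted p under 0.05), 102 higher and 41 lower with array weights, and 73 higher and 32 lower without Yaa 2 and Yaa 3. With single samples left out it called 0 to 27 higher and 0 to 3 lower, 27 and 3 without Yaa 2. Of the receptor probe sets 3 were called with array weights and 3 without Yaa 2 and Yaa 3, and 0 to 1 with single samples left out. Of the 69 related genes 2 were called with array weights and 2 without Yaa 2 and Yaa 3, both times Camp and Anxa1, and 0 to 1 with single samples left out, Camp without Yaa 2. The median difference of the receptors, 1.26, was 0.75 without Yaa 2 and Yaa 3, 0.92 with array weights and 1.09 to 1.53 with single samples left out. In all alternatives but the removal of that pair it moved by less than the spread between samples (SD 0.39). With the signals as deposited the median of all tested probe sets was -0.20, and with median-centred arrays -0.11, while the receptors stood at 1.04 and 1.13. Samples with the same replicate number did not deviate together (r from -0.37 to 0.02). Since Yaa 2 and Yaa 3 stood apart from the rest, this cannot exclude that the numbers pair samples. The causes of these changes were not tested.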
